A study of Mus musculus with 3 samples.

Results

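The brush border is the carpet of microvilli that faces the gut lumen, and the 9 genes described here encode its actin-bundling protein villin and 8 of its digestive enzymes. They were taken by symbol from the 32285 genes of the deposited single-cell RNA-seq tables of mouse small intestinal organoids, and each symbol matched 1 gene. In order of role they are Vil1, the carbohydrate-splitting enzymes Sis, Mgam, Lct and Treh, the alkaline phosphatase Alpi, and the peptidases Anpep, Dpp4 and Mep1a. Their level, their spread between cells and their joint variation were measured in wild-type organoids, and their remaining level was measured in organoids made to lose Apc.

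Organoids are epithelial bodies grown in a gel from intestinal cells. The WT library is labelled only as WT, the LApc library came from Lgr5-CreERT2;Apc fl/fl mice, and the LApcL library had the Lef1 fl/fl alleles in addition. The strain of all was C57BL/6. In another experiment the study uses WT for mice that carry the Cre alone, and for the WT library used here neither the labels nor the methods say whether the mice carried it. All mice were 7 to 8 weeks old and had received 2 doses of 2 mg tamoxifen, the WT mice included, and the days from injection to analysis were 21 for WT and LApcL and 29 for LApc, so that time and genotype cannot be told apart between LApc and the others. Apc is a brake on Wnt signalling and Lef1 a transcription factor of that pathway. The Cre recombinase is made only in cells that express the stem cell gene Lgr5, so recombination starts in those cells, and how complete it was in these organoids was not measured here. Organoids were taken at passage 3 on culture day 6 and broken up with trypsin. The study's methods describe organoid culture without growth factors for 2 passages and, in some experiments, supplements from passage 3. Which medium these passage 3 libraries had is not given in the sources used here, for WT or for the others. There was 1 library per group, and therefore no test between groups was possible. All intervals below are exact 95% intervals that cover counting error only, not the spread between mice or cultures.

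Enterocytes, the absorptive cells of the villus, arise from dividing crypt cells and build their microvilli and enzymes as they mature. Villin bundles the actin core of each microvillus and is made throughout the intestinal epithelium. Membrane-bound hydrolases then finish digestion at the cell surface, and many of them are classical signs of a mature enterocyte. Transcription factors of the HNF1, HNF4, CDX and GATA families are known to drive these genes.

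The values come from barcodes with at least 10000 unique molecular identifiers (UMIs), of which no more than 20% were from mitochondrial genes, and which were found in 1 library only. A barcode marks 1 droplet, usually 1 cell, and a UMI marks 1 captured RNA 3′ end. These limits kept 1208 of 11411 WT barcodes, 2161 of 10706 LApc barcodes and 1931 of 12068 LApcL barcodes, with medians of 38073.5, 34377 and 32584 UMIs and of 10.5%, 5.64% and 6.39% mitochondrial UMIs. The 3 libraries shared 3195 barcodes, far shallower than the others and rich in endothelial transcripts, and only 10, 11 and 7 shared barcodes reached the depth limit. Keeping those of them that also met the mitochondrial limit changed no count of members given below. Levels are given as CPM, the UMIs of a gene per 1000000 UMIs of all genes, summed over the barcodes of a library. Since each UMI stands for 1 captured 3′ end whatever the transcript's length, CPM was used to set genes beside each other.

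The upstream sequences of Sis, Mgam and Lct are shown because Sis and Mgam encode related starch- and sugar-splitting enzymes with unlike levels in the Apc-targeted organoids, and because Lct had the highest ratio of the 9 between enterocyte-like and other WT barcodes. Each run is the 250 bases before the RefSeq transcription start on build GRCm38.p6, read 5′ to 3′ on the gene's strand. Capitals mark every match, on either strand, to GTTAAT (HNF1 half-site), TTTAT (CDX core) or GATAA (GATA core). Sis lies at chr3:72967864-72968113 on the minus strand, Mgam at chr6:40628581-40628830 on the plus strand and Lct at chr1:128328319-128328568 on the minus strand.
Sis: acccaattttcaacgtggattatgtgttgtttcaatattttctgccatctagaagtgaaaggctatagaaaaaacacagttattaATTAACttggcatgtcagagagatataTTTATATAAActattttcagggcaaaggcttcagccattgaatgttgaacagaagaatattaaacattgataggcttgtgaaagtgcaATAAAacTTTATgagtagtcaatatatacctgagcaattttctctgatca
Mgam: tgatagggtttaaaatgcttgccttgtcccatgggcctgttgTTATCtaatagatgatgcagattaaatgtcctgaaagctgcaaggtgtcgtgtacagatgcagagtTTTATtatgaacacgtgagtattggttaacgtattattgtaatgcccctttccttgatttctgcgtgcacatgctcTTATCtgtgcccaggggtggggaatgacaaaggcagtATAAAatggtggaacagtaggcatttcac
Lct: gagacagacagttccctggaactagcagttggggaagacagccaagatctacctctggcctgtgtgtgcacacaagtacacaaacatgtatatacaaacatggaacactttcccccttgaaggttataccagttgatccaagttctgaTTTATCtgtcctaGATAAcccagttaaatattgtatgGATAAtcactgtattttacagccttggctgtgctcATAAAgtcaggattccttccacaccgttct

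The Sis window held 1 match to GTTAAT, on the other strand, and 4 to TTTAT, of which the run TTTATATAAA holds a forward and a reverse match side by side. The Mgam window held 2 matches each to TTTAT and GATAA. The Lct window held 2 to TTTAT and 3 to GATAA, with 1 match of each overlapping in TTTATC. Over the 9 members, 1 window held GTTAAT, 5 held TTTAT and 4 held GATAA. Among 32851 mouse promoter windows of the same length the shares were 6.43%, 37.3% and 22.6%. The windows of Vil1, Treh and Anpep held none of these matches. The Anpep window, chr7:79848211-79848460 on the minus strand, lies inside the gene body given below, so it does not cover the outermost annotated start. A match is a description of the sequence and not a bound site.

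The gene bodies, on mm10, are spread over 7 chromosomes. Vil1 lies at chr1:74409376-74435559, Sis at chr3:72888557-72967863, Mgam at chr6:40628831-40769123, Lct at chr1:128284756-128328318, Treh at chr9:44673233-44686305, Alpi at chr1:87098002-87101606, Anpep at chr7:79821803-79861059, Dpp4 at chr2:62330073-62412231 and Mep1a at chr17:43474324-43502812. All are protein coding. Vil1 overlaps Usp37, Treh overlaps Phldb1 and Dpp4 overlaps the antisense gene Gm13561 on the opposite strand, and reads of such neighbours are separable only by strand. Anpep overlaps Gm44974 on its own strand, which strand cannot separate and which was not analysed here. Alpi has the close relatives Akp3 and Alppl2, which gave 139 and 27 UMIs in WT against 2757 for Alpi. In LApc they gave 46 and 5 UMIs against 8 for Alpi, and in LApcL 0 and 0 against 1, so the Alpi counts of these libraries are uncertain where reads could be split between relatives.

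In WT organoids all 9 genes were detected, and their levels spanned from 9.43 to 1202 CPM. Sis, which encodes sucrase-isomaltase, led at 1202 CPM, ahead of Mgam, the maltase-glucoamylase, at 237 CPM and Vil1 at 220 CPM. Alpi followed at 56.4 CPM, then Anpep, the aminopeptidase N that trims peptides from their amino end, at 51.7 CPM, and Dpp4, the dipeptidyl peptidase that clips proline-containing peptides and incretin hormones, at 45.6 CPM. The milk sugar enzyme lactase, Lct, stood at 14.5 CPM, the metalloprotease subunit Mep1a at 12.8 CPM and the trehalase Treh at 9.43 CPM. The counting intervals of adjacent genes in this order did not overlap, except those of Lct (13.4 to 15.6) and Mep1a (11.8 to 13.9). The place of Alpi depended on the barcodes kept. With at most 10% mitochondrial UMIs it stood at 34.0 CPM, under Anpep at 61.2 and Dpp4 at 55.4 CPM, and with barcodes weighted equally at 52.7 CPM, under Anpep at 57.8 CPM.

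In the Apc-targeted organoids some members were nearly absent and others were kept in part. Sis, Lct, Treh and Alpi each gave between 1 and 25 UMIs per library in LApc and LApcL, against 461 to 58786 in WT. Vil1, Mgam, Dpp4, Anpep and Mep1a stood at between 3.56% and 63.7% of their WT level. Of these, Anpep in both libraries and Mep1a in LApc were not clearly above the shared barcodes, as described below. Summed over the 8 enzymes, WT had 1629.5 CPM, LApc 57.7 and LApcL 82.9. In summed RNA, fewer cells of a type and less RNA per cell cannot be told apart.

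**Figure D1:**
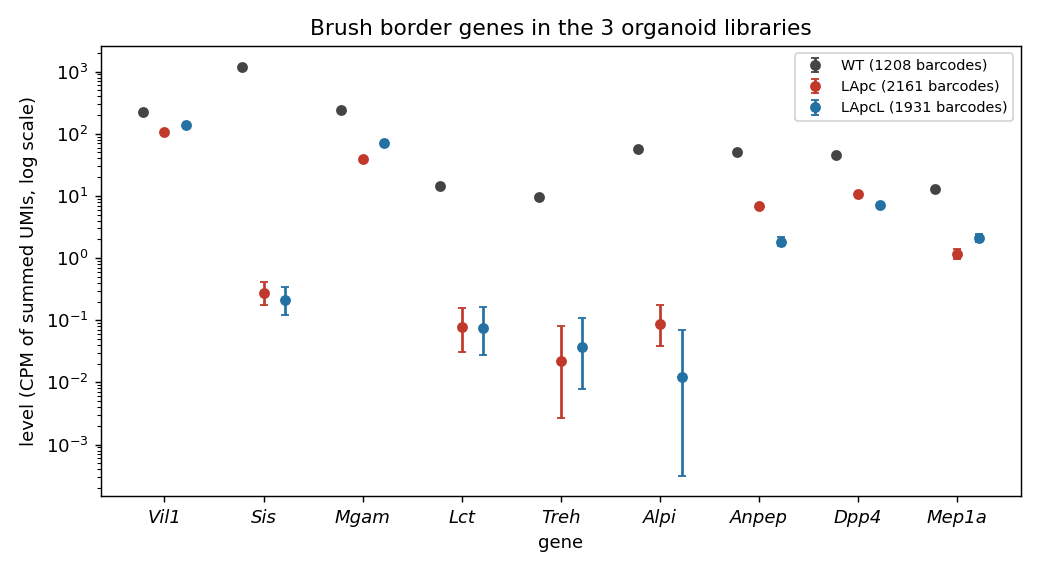
Level of each gene in CPM of summed UMIs (log scale, vertical axis) by gene (horizontal axis), with points for the WT, LApc and LApcL libraries and bars for exact 95% Poisson intervals. Sis, Lct, Treh and Alpi lie below 1 CPM in LApc and LApcL, while Vil1 lies above 100 CPM in all 3 libraries.

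Vil1 stood at 220 CPM in the WT library, at 106 in LApc and at 139.9 in LApcL. It was 2.07-fold lower in LApc (2.01 to 2.12) and 1.57-fold lower in LApcL (1.53 to 1.61). This was the smallest reduction among the 9 genes in both libraries. The LApc value sat so close to the 2-fold mark that it passed to the other side when at most 10% mitochondrial UMIs were allowed (log2 ratio -0.93 in place of -1.05).

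Sis had 1202, 0.275 and 0.211 CPM in WT, LApc and LApcL, from 58786, 25 and 17 UMIs. It was 4369.8-fold lower in LApc (2959.9 to 6753) and 5693-fold lower in LApcL (3556 to 9774). Only 9 of 2161 LApc barcodes held a Sis UMI, and 1 of them gave 10 of the 25. By cluster, 80.0% of these UMIs lay in LApc cluster 1, a Chgb-led cluster. Among the 9068 genes with at least 10 CPM in WT or LApc, Sis had the rank 12 from the lowest ratio.

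Mgam, its relative, was kept in part. Its values were 237, 38.5 and 71.5 CPM in the same order, a difference of 6.15-fold (5.92 to 6.39) and 3.31-fold (3.21 to 3.42) from WT. Mgam was thereby the most abundant of the 8 enzymes in both Apc-targeted libraries, whereas Sis was in WT.

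The other carbohydrate-splitting enzymes were close to the limit of detection. Lct had 14.5, 0.0770 and 0.0745 CPM in WT, LApc and LApcL, the latter from 7 and 6 UMIs, which was 188-fold (90.7 to 469) and 194-fold lower (88.8 to 531). Treh had 9.43, 0.0220 and 0.0373 CPM, the latter from 2 and 3 UMIs, and its ratios to WT were 0.00233 (0.000282 to 0.00848) and 0.00395 (0.000812 to 0.0116). No barcode of LApc or LApcL held more than 1 UMI of either gene.

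Alpi, which removes phosphate from bacterial endotoxin and dietary nucleotides, was at 56.4 CPM in WT. It was at 0.0880 CPM in LApc from 8 UMIs, 640.4-fold lower (324.6 to 1485), fewer UMIs than the 46 of its relative Akp3 in that library. In LApcL a single Alpi UMI was found among 80504226, a ratio to WT of 0.000220 (5.58e-06 to 0.00123).

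The peptidases differed in their remaining level. Anpep was at 51.7, 6.96 and 1.84 CPM in WT, LApc and LApcL, 7.43-fold (6.81 to 8.12) and 28.1-fold lower (23.8 to 33.4). Dpp4 was at 45.6, 10.6 and 7.09 CPM, 4.31-fold (3.99 to 4.65) and 6.42-fold lower (5.86 to 7.06). Mep1a was at 12.8, 1.18 and 2.14 CPM, 10.9-fold (8.86 to 13.5) and 6.00-fold lower (5.06 to 7.15). Anpep and Dpp4 were thus lower in LApcL than in LApc, and Mep1a was higher.

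Lower by at least 2-fold were 9 of 9 members in LApc, against 10.2% of all genes tested, and 8 of 9 in LApcL, against 10.6%. None was higher by 2-fold, against 25.8% and 28.8% of all genes. The median log2 ratio of the members was -3.44 in LApc and -4.81 in LApcL, beside medians of 0.52 and 0.54 over all genes tested. Scaling by median-of-ratios factors shifts every log2 ratio by -0.45 in LApc and -0.49 in LApcL. Under that scaling 16.5% of genes were lower and 13.7% higher in LApc, 17.9% lower and 13.9% higher in LApcL, and Vil1 passed 2-fold in LApcL too (log2 ratio -1.14). Treh was under 10 CPM in every library, so 8 of the 9 members are among the genes behind these percentages. Of the 8, Sis, Lct, Alpi, Anpep and Mep1a reached 10 CPM through WT alone, as did Dpp4 in the comparison with LApcL. The limit on low values favoured genes that are high in WT. Setting the counts beside these percentages therefore supports nothing about the members as a set.

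**Figure D2:**
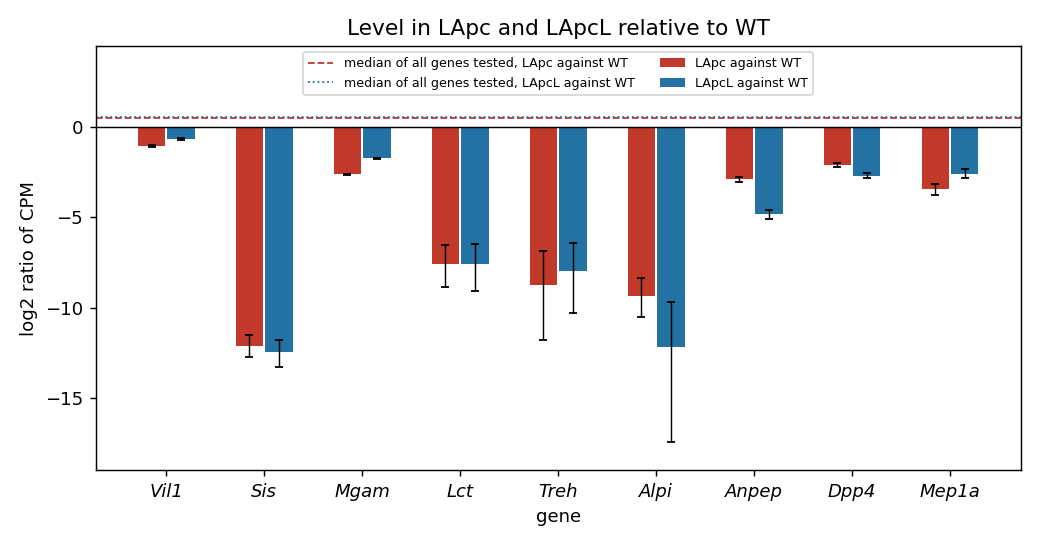
Log2 ratio of CPM relative to WT (vertical axis) for each gene (horizontal axis) in LApc (red) and LApcL (blue), with exact 95% intervals from counting and dashed or dotted lines for the median of all genes tested. All 18 bars lie below 0, from -0.65 for Vil1 in LApcL to -12.48 for Sis in LApcL, while the medians lie near 0.52 and 0.54.

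Along with the members, the makeup of the libraries differed. The summed level of 12 enterocyte markers that include no member was 22847, 39.7 and 52.1 CPM in WT, LApc and LApcL, with Apoa4 at 0 in LApcL. The sums for 6 enteroendocrine markers were 1366, 14.3 and 2.84 CPM, with Gip at 0 in LApc and Gip and Cck at 0 in LApcL. For 7 goblet markers they were 1458, 327 and 661 CPM, with Zg16 at 0 in LApc. For 6 Paneth markers they were 235, 1379 and 3453 CPM, and for 6 stem markers 409, 1042 and 1489.75 CPM, with none at 0. The 8 markers of high Wnt signalling summed to 34.4, 2041 and 848 CPM, and the 7 of proliferating cells to 371, 696 and 1122 CPM, again with none at 0. For 5 endothelial markers the sums were 1.29, 18.2 and 5.34 CPM. For 4 fibroblast and 5 immune markers no sum passed 1.74 CPM, with Dcn and Ptprc at 0 in WT, C1qa in LApc and C1qa and Cd3e in LApcL. The part of the makeup in the members' levels was not tested beyond the comparison that follows.

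The WT barcodes outside the enterocyte-like clusters gave a further comparison. They numbered 717 and are no uniform or immature set, since they hold the goblet-like and enteroendocrine-like clusters and the unnamed cluster 4, where the enterocyte markers summed to 13677 CPM. In these barcodes the 9 genes were measured there at levels from 2.00 CPM for Lct to 602 CPM for Sis. Relative to these barcodes, Sis was still 2188-fold lower in LApc and 2850.5-fold lower in LApcL. Mgam was 5.24-fold and 2.83-fold lower, Dpp4 3.59-fold and 5.35-fold lower, and Anpep 3.51-fold and 13.3-fold lower. Mep1a was 8.19-fold and 4.52-fold lower. The differences shrank most for Lct, to 26.0-fold and 26.9-fold. Treh had ratios of 0.00810 (0.000964 to 0.0303) and 0.0137 (0.00277 to 0.0416) to these barcodes. Alpi was 255-fold lower in LApc, and its ratio was 0.000553 (1.4e-05 to 0.0031) in LApcL. Vil1 differed least, by 1.65-fold and 1.25-fold. Past 2-fold were 8 of 9 members in each comparison, against 8.84% of all genes lower and 19.7% higher in LApc, and 9.12% and 20.3% in LApcL. With cluster 4 left out as well, the WT level was 426 CPM for Sis and 145 CPM for Mgam, and the count was again 8 of 9, against 8.11% and 8.03% of all genes lower. Lct, Treh and Mep1a were under 10 CPM in both sets of WT barcodes and in LApc and LApcL. They are therefore not among the genes behind these shares. Sis, Alpi and Anpep passed the limit through WT alone, as did Dpp4 against LApcL. The counts thus support nothing about the members as a set.

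Between the 2 Apc-targeted libraries the members differed in both directions. Vil1 was 1.32 times as high in LApcL as in LApc (1.28 to 1.35), Mgam 1.85 times (1.78 to 1.93) and Mep1a 1.81 times (1.42 to 2.33). Dpp4 was at 0.671 of the LApc level (0.604 to 0.745) and Anpep at 0.264 (0.219 to 0.317). Lower by at least 2-fold in LApcL were 2 of 9 members, Anpep and Alpi, and none was higher, against 3.48% lower and 1.46% higher over all genes tested, of which only 3, Vil1, Mgam and Dpp4, are members. For Alpi this rested on 1 UMI against 8, with an interval of the ratio from 0.00318 to 1.05. The intervals for Sis (0.389 to 1.48), Lct (0.269 to 3.36) and Treh (0.194 to 20.3) also held 1, so no difference was detectable at these counts.

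The share of cells with each transcript was compared after every barcode was thinned to 10000 UMIs. Sis was found in 88.9% of WT barcodes, Vil1 in 81.8% and Mgam in 76.7%. Dpp4 was found in 31.1%, Alpi in 25.7%, Anpep in 23.5%, Mep1a in 13.1%, Lct in 8.36% and Treh in 7.95%. Without thinning the WT shares ran from 15.4% for Lct to 97.4% for Vil1, so the thinned shares are lower because fewer UMIs were read.

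In the Apc-targeted libraries the thinned shares differed by gene. Vil1 was found in 55.9% of LApc and 73.1% of LApcL barcodes, and Mgam in 27.6% and 49.0%. Dpp4 was found in 8.19% and 7.77%, Anpep in 7.03% and 1.35%, and Mep1a in 0.833% and 2.64%. Sis was found in 0.185% and 0.311%. Alpi was found in 0 of 2161 and 0 of 1931 thinned barcodes, and Lct in 2 and 0.

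Counted together, at least 4 of the 8 enzymes were found in 302 of 1208 thinned WT barcodes (22.6% to 27.5%). This was so in 0 of 2161 LApc and 0 of 1931 LApcL barcodes, which allows shares of up to 0.171% and 0.191%. All 8 enzymes were found in 2 WT barcodes. None of the 8 was found in 2.73% of WT barcodes (1.89 to 3.82), 61.3% of LApc barcodes (59.2 to 63.3) and 46.0% of LApcL barcodes (43.7 to 48.2).

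The members were also measured in the shared, endothelial-rich barcodes, which should hold few epithelial cells. Whether their member UMIs are free RNA or RNA of their own was not tested. Their 5 endothelial markers summed to 3242, 3039.9 and 3049.9 CPM in the WT, LApc and LApcL libraries, against 1.29, 18.2 and 5.34 CPM in the barcodes used, and their median depth was 2137, 1489 and 1581 UMIs. In the WT library Sis was at 58.5 CPM there from 498 UMIs that lay in 1.12% of barcodes, Vil1 at 17.0 CPM and Mgam at 16.4 CPM. The levels in the WT barcodes used were well above these. In LApcL the Anpep level of 1.84 CPM was below the 6.20 CPM (4.45 to 8.41) of the shared barcodes, and in LApc the 6.96 CPM was close to their 6.66 CPM (4.78 to 9.04), so over the whole of these libraries Anpep did not stand above the shared barcodes. The LApc level of Mep1a, 1.18 CPM (0.965 to 1.42), also met the interval of its shared barcodes (0.101 to 1.42). The same held for Sis, Lct, Treh and Alpi in both LApc and LApcL, whose levels of 0.0124 to 0.275 CPM lay within the intervals of the shared barcodes. Those intervals reached 0.600 CPM in LApc, and 0.558 CPM or, for Sis, 1.09 CPM in LApcL. Vil1, Mgam and Dpp4 were well above the shared barcodes in both libraries, which stood at 8.45 and 10.1 CPM for Vil1, at 2.76 and 4.24 CPM for Mgam and 0.650 and 0.756 CPM for Dpp4.

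Within the WT library the genes differed in how unevenly they were spread over cells. After thinning, the median barcode held 8 Sis UMIs, the middle 50% held 2 to 17, and the highest held 110. The variance over the mean, which would be 1 for counts spread at random, was 14.8 for Sis and 9.44 for Anpep. It was 3.87 for Alpi, 2.68 for Mgam and 2.36 for Lct, and 1.85 for Dpp4, 1.63 for Vil1, 1.55 for Treh and 1.15 for Mep1a. Across 7091 genes with a mean in the members' range, from 0.106 to 12.1 UMIs, the median was 1.12 and the 90th percentile 1.67. Past that percentile were 6 of 9 members. These genes were not matched to each member by mean, and this ratio rises with the mean at the same relative spread. It therefore does not rank the members by unevenness.

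Anpep was held by few barcodes, and unevenly. Its median barcode held 0 UMIs, 76.5% held none, and the highest held 40 of 10000. The top 10% of barcodes held 76.4% of its UMIs, and 100% of those of the scarcer Lct and Treh and 79.6% for Mep1a, which most barcodes lacked after thinning. The share was 68.5% for Alpi, 55.1% for Dpp4, 35.3% for Sis, 34.3% for Mgam and 28.4% for Vil1. Inside the enterocyte-like clusters its variance over mean was 12.1, and outside them it was 2.01. Vil1 was the most even of the abundant members, with a median of 2 UMIs, a middle 50% of 1 to 3 and a highest value of 12.

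Clustering of the WT barcodes without the 9 genes gave 8 clusters. Clusters 2, 3 and 7 were called enterocyte-like from their markers, with 137, 173 and 181 barcodes. Cluster 1 was called proliferating-like, cluster 5 enteroendocrine-like and cluster 6 goblet-like, and the leading genes of cluster 6 also held Olfm4 of stem cells and Defa24 and Itln1 of Paneth cells. Clusters 2 and 3 reached their name only when set against the other named clusters. Cluster 4 (203 barcodes) and the shallow, histone-led cluster 0 (39 barcodes) were not named. The enterocyte-like clusters held 40.6% of barcodes and between 51.2% (Mgam) and 92.1% (Lct) of each member's UMIs.

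Cluster 7, whose leading genes included Cyp2c29, Apoa1 and Dpep1, held the highest level of 7 of the 9 genes. Lct was at 70.8 CPM there, against 14.9 CPM in cluster 2 and 3.86 CPM in cluster 3, and 75.3% of all its WT UMIs came from this cluster. Treh was at 41.7 CPM, against 6.20 and 4.55 CPM, with 68.1% of its UMIs. Anpep was at 184 CPM, against 14.4 and 51.3 CPM, with 54.7% of its UMIs.

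The phosphatase and Sis were less restricted. Alpi was at 175.5 CPM in cluster 7, 94.01 CPM in cluster 2 and 31.8 CPM in cluster 3. Sis was at 2875 CPM in cluster 7, 1734 CPM in cluster 2 and 1333 CPM in cluster 3, and it was also at 1019 CPM in the unnamed cluster 4. It was found in 74.8% of the thinned barcodes of cluster 6, at 436 CPM, and in 73.8% of proliferating-like barcodes, at 328 CPM, against 1.12% of the far shallower shared barcodes. Cluster 6 is called goblet-like but is mixed, with 55.3% of the WT Lgr5 UMIs, and at a Leiden resolution of 1.0 only 32 WT barcodes were goblet-like, so this is no share of goblet cells. Doublets were not removed in these values, and their part in them was not tested.

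Mgam and Dpp4 broke the pattern. Mgam was highest, at 408 CPM, in the shallow cluster 0, with 336 CPM in cluster 4 and 335 CPM in cluster 7, and lowest, at 119 CPM, in the enteroendocrine-like cluster. Dpp4 was highest in the 38 enteroendocrine-like barcodes, at 230 CPM, with a UMI in 86.8% of them after thinning. It was at 106 CPM in cluster 7 and between 25.8 and 42.4 CPM in the other 6 clusters.

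**Figure D3:**
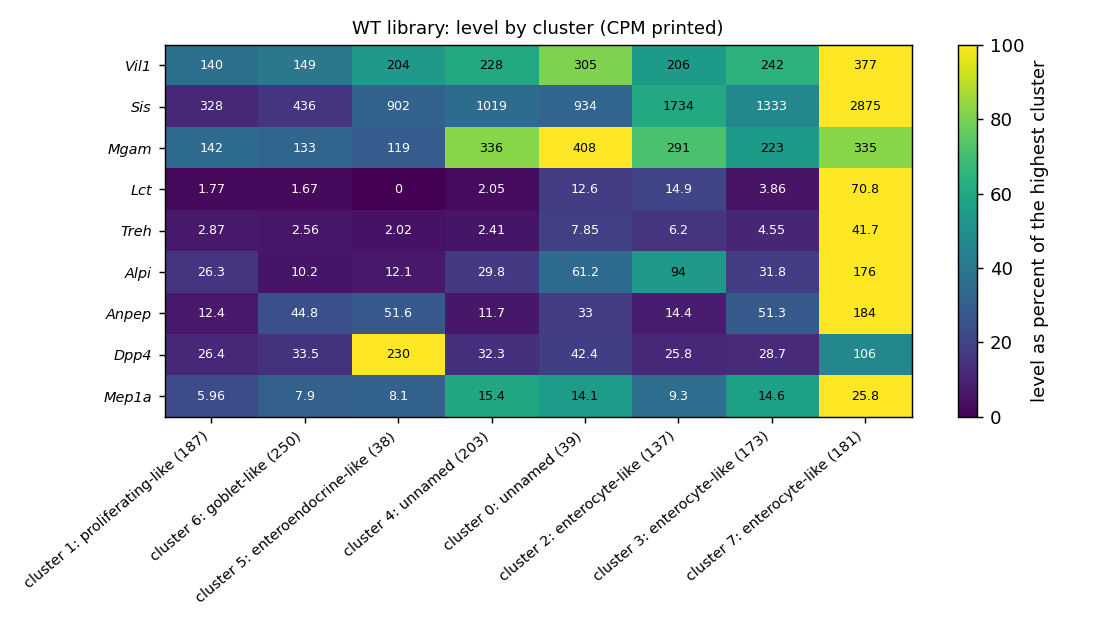
Level of each gene (rows) in each WT cluster (columns, with the number of barcodes), printed in CPM and coloured as the percent of the gene's highest cluster. Cluster 7 is the brightest column for 7 genes, while Dpp4 peaks in the enteroendocrine-like cluster and Mgam in cluster 0.

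Set against the other 717 WT barcodes, the enterocyte-like barcodes separated the members by how strongly they were enriched. The ratio was 15.6 for Lct (11.8 to 20.9), 6.78 for Treh (5.29 to 8.79) and 4.54 for Alpi (4.15 to 4.97). It was 3.61 for Anpep and 3.33 for Sis. It was under 2 for Mep1a (1.77), Vil1 (1.60), Dpp4 (1.47) and Mgam (1.40). These ratios depend on where the unnamed cluster 4 is placed, since it held 24.1% of Mgam and 20.4% of Mep1a UMIs.

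The WT barcodes were also put in order by their share of UMIs from the 12 enterocyte markers and divided into 5 groups of equal size, from group 1 with the lowest share to group 5 with the highest. From group 1 to 5, Sis was at 180.3, 443, 1014, 1728 and 2385 CPM. Lct was at 0.235 CPM from 2 UMIs in group 1, then 0.433, 2.41, 26.3 and 39.0 CPM, with its largest step, in CPM, between groups 3 and 4. Treh was at 1.06, 2.49, 2.99, 14.1 and 24.4 CPM, with its step in the same place. No other member was under 3 CPM in group 3.

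Alpi was at 7.41, 27.2, 38.4, 90.7 and 106 CPM, and so was already higher in group 2 than in group 1. Anpep was level over the first groups, at 28.9, 27.6 and 36.1 CPM, before 69.0 and 90.3 CPM. Mgam reached its highest level in group 4, at 311 CPM, between 276 and 279 CPM on either side, from 107 CPM in the lowest. Vil1 went from 126 to 291 CPM and Mep1a from 5.88 to 17.4 CPM.

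Dpp4 differed least between groups 1 and 5, at 47.2, 31.0, 40.2, 50.1 and 58.2 CPM. For orientation, Lgr5 went from 48.2 to 0.877 CPM between the same groups. Mki67, a gene of dividing cells, was highest in group 2, at 166.9 CPM, against 125 CPM in group 1 and 12.5 CPM in group 5. The goblet gene Muc2 was at 394.7 CPM in group 1 and 25.8 CPM in group 2, so group 1 was rich in goblet transcripts and the order is no plain series from crypt to villus. The median depth went from 32787.5 to 41634 UMIs.

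**Figure D4:**
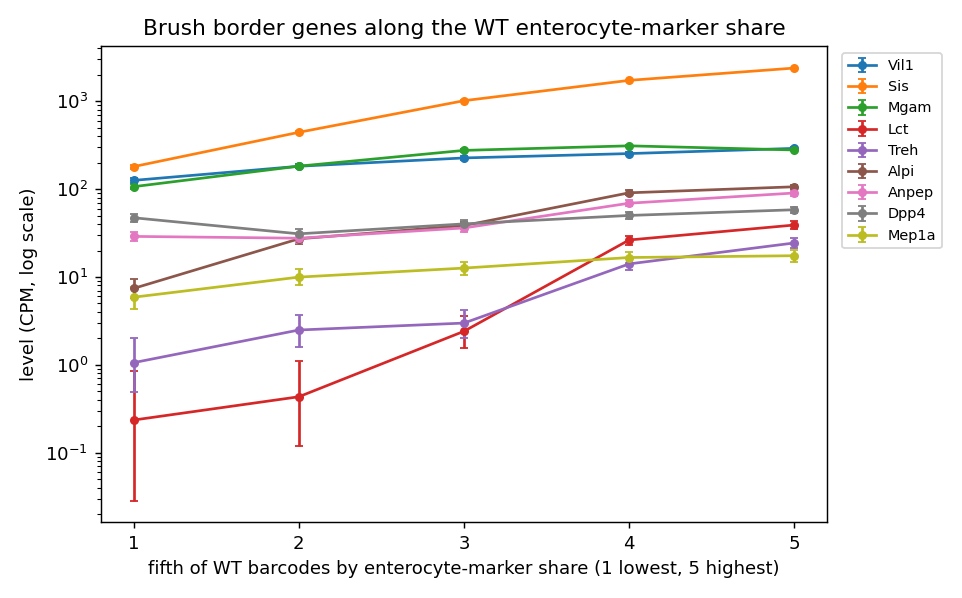
Level in CPM (log scale, vertical axis) of each gene over 5 equal groups of the WT barcodes ordered by their share of enterocyte-marker UMIs (horizontal axis), with exact 95% Poisson intervals. Lct and Treh bend upward between groups 3 and 4, and Dpp4 stays between 31.0 and 58.2 CPM.

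Over the 1208 WT barcodes all 36 pairs of members had a positive Pearson r on the scale of ln(1 + UMIs per 10000), with a median of 0.30 and a range from 0.032 to 0.616. As Spearman's rho on thinned UMIs 35 pairs were positive, with a median of 0.141. As Pearson r 34 pairs were positive within the enterocyte-like barcodes and 31 outside them. All values share one library, its depth and its cell types, and they are given as a description. The highest was between the relatives Sis and Mgam, at 0.616, and it was nearly the same within the enterocyte-like barcodes (0.611) and outside them (0.592). Next came Lct with Treh (0.526) and Lct with Anpep (0.497). Outside the enterocyte-like barcodes those values were 0.0582 and 0.205.

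Alpi stood apart from the peptidases. Its r was 0.0324 with Mep1a, 0.0462 with Dpp4 and 0.107 with Anpep, and within the enterocyte-like barcodes it was -0.0732, 0.0429 and 0.0274. The median r of Dpp4 with the other members was 0.466 within the enterocyte-like barcodes and 0.298 over all. With the total UMIs of a barcode the members had r between -0.0966 and 0.134, and with its mitochondrial percentage between -0.123 and 0.212.

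**Figure D5:**
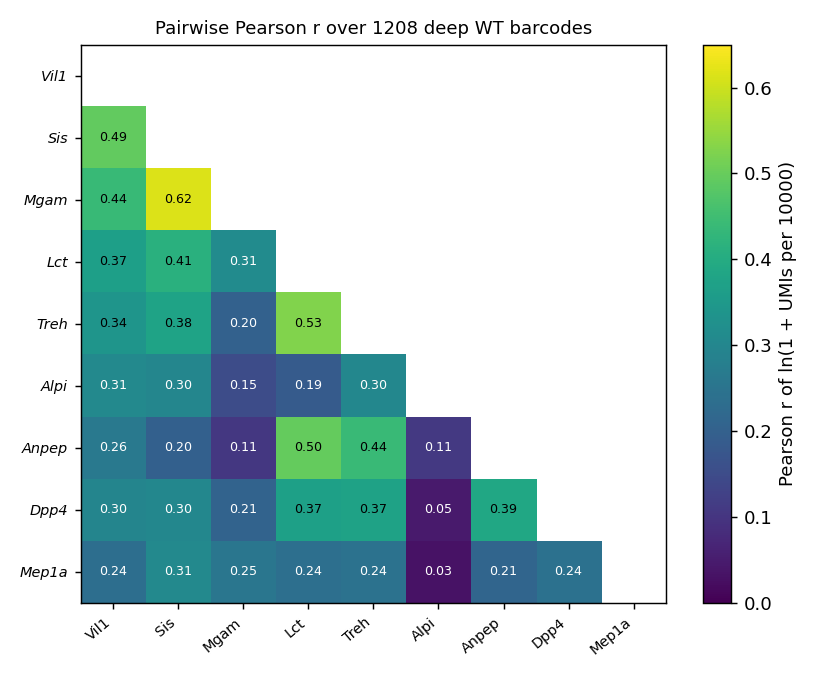
Pearson r between each pair of the 9 genes over 1208 deep WT barcodes, computed on ln(1 + UMIs per 10000), with colour and printed value giving r. Sis with Mgam is the highest at 0.62 and Alpi with Mep1a the lowest at 0.03.

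The genes whose pattern over WT barcodes was most like each member were found among 10148 genes present in at least 10% of barcodes. For Sis they were the glucose transporter Slc5a1 (r = 0.80) and Tkfc (0.78). For Mgam they were Sis (0.62), Slc5a1 (0.59) and Cndp2 (0.58), and for Vil1 the lipoprotein gene Apob (0.59), Ces2c (0.57) and Cyp3a11 (0.56). For Lct they were Asah2 (0.68), Cyp2c29 (0.67) and the dipeptidase Dpep1 (0.64), and for Treh Dpep1 (0.67), Cyp2c29 (0.66) and Fmo5 (0.63). For Alpi they were the apolipoprotein Apoc2 (0.54), Prap1 (0.53) and Cyp2d26 (0.49).

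Among the peptidases, Anpep was most like Ace, the angiotensin-converting enzyme (0.60), Dpep1 (0.53) and Clec2h (0.51). Dpp4 was most like Cyp4b1 (0.58), the microvillus cadherin Cdhr2 (0.55) and Krt20 (0.50). Mep1a had no close match, with Spink1 (0.35) and Slc5a8 (0.33). Of these genes Ace was kept near its WT level of 8.22 CPM, with 8.19 CPM in LApc and 9.29 in LApcL. Cyp2c29 was at 247 CPM in WT with no UMI in either of the others.

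In LApc and LApcL no cluster met the marker rule for enterocytes, and the remaining members were spread unevenly. In LApc, Anpep was at 18.8 CPM in cluster 0 and 20.8 CPM in cluster 1, unnamed clusters led by Npy and by Chgb, which held 40.0% and 26.3% of its UMIs. It was at 38.4 CPM in the 34 Paneth-like barcodes and between 0.303 and 4.46 CPM elsewhere. In LApcL, 48.0% of the 148 Anpep UMIs lay in the 85 Paneth-like barcodes, at 29.9 CPM. Without the Paneth-like clusters the Anpep level was 6.61 in LApc and 0.986 CPM in LApcL, and without cluster 0 the LApc value was 4.90 CPM. The log2 ratio between LApcL and LApc moved accordingly from -1.92 to -2.75 and to -1.41.

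Mgam was lowest in the Npy-led LApc cluster 0, at 5.57 CPM, and between 28.9 and 59.8 CPM in the other 8 clusters. Without cluster 0 the LApc level was 44.3 CPM and the log2 ratio of LApcL to LApc 0.69 in place of 0.89. In LApcL, Mgam lay between 28.7 and 97.2 CPM in all 8 clusters.

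Dpp4 and Mep1a were each highest in the same LApc cluster. Cluster 6, an unnamed cluster with Lgr5 at 72.9 CPM, had Dpp4 at 20.3 CPM and Mep1a at 2.49 CPM, with 33.1% and 36.4% of their UMIs. In LApcL, Mep1a was highest in cluster 5, led by Vim and with Lgr5 at 133 CPM, where it reached 6.68 CPM and 40.7% of its UMIs. Vil1 lay between 50.6 and 159 CPM over the LApc clusters and between 111 and 156 CPM over the LApcL clusters.

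Other genes of the brush border, in lists chosen with earlier results known, were also divided by role. Of 16 genes of the microvillus core and its adhesion links, 15 were tested in LApc against WT. Lower by 2-fold were 5, Pls1, Myo1a, Cdhr2, Cdhr5 and Anks4b, and higher were 0, against 10.2% and 25.8% of all genes. Apart from Pls1 these were named after their values were seen. The median log2 ratio of the list was -0.24, beside 0.52 over all genes tested. Ezr, which ties membrane to actin, was at 209, 234 and 263 CPM in WT, LApc and LApcL, and Eps8 at 87.3, 103 and 132 CPM. Calml4 was at 383, 339 and 448 CPM, while the actin bundler Pls1 was at 213, 87.3 and 121 CPM. In LApcL against WT, 4 of 15 were lower and 0 higher, against 10.6% and 28.8% of all genes, with medians of -0.22 for the list and 0.54 over all.

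Of 16 other brush border hydrolases 8 were tested, and all 8 were lower by 2-fold in LApc and in LApcL, against 10.2% and 10.6% of all genes. These 8 reached 10 CPM in WT only or, for Asah2, in WT and LApcL, so the limit on low values favoured genes that are high in WT, and the count supports nothing for the list as a whole. Among the 8 untested were Ace, at 8.22, 8.19 and 9.29 CPM, Plb1, with 12, 26 and 4 UMIs, and Nt5e, with 10, 18 and 13 UMIs in WT, LApc and LApcL, named after their values were seen. Mme, neprilysin, was at 57.2, 0.275 and 0.335 CPM in WT, LApc and LApcL, and Enpep, a glutamyl aminopeptidase, gave 2445, 73 and 18 UMIs. Kept in part were Mep1b, the partner subunit of Mep1a, at 14.2, 1.66 and 0.435 CPM, and the ceramidase Asah2 at 44.4, 7.89 and 13.0 CPM. Of 14 transporters 10 were tested, of which 9 were lower in LApc and 10 in LApcL, against the same 10.2% and 10.6%, and with the same limit. The untested Slc28a2, named after its values were seen, went the other way with 18, 79 and 355 UMIs. Slc5a1 was at 529, 24.8 and 35.7 CPM, the fructose carrier Slc2a5 at 131.6, 0.231 and 0.460 CPM, and the chloride exchanger Slc26a3 at 43.1, 0.0330 and 0.0870 CPM. The iron carrier Slc11a2 was at 40.6, 16.2 and 20.0 CPM, and the sodium-proton exchanger Slc9a3 at 17.7, 9.49 and 0.720 CPM.

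Of 14 regulators of enterocyte genes 13 were tested in LApc against WT, and 3 were lower by 2-fold and 2 higher, against 10.2% and 25.8% of all genes. In LApcL against WT, 4 of 12 were lower and 2 higher, against 10.6% and 28.8%. Here too the 10 CPM limit bears on the counts, since the 3 lower in LApc passed it through WT alone and Prdm1 through LApc alone, so the counts support nothing about the list. Creb3l3, Gata4 and Hnf4g were lower in both libraries, and Maf was also lower in LApcL. Creb3l3, a membrane-bound factor of lipid metabolism genes, gave 7876, 5 and 1 UMIs in WT, LApc and LApcL. Gata4, a factor of the proximal small intestine, gave 2335, 2 and 1 UMIs, and Hnf4g stood at 102, 9.79 and 15.9 CPM. Maf was at 47.9, 30.5 and 6.72 CPM. Gata4, Hnf4g and Maf were named after their values were seen. Cdx1 was at 112, 88.2 and 86.6 CPM and Klf5 at 486, 269.8 and 291 CPM. Higher in LApc were Elf3, at 82.8, 221 and 314 CPM, and Prdm1, at 5.34, 13.3 and 8.26 CPM. Between LApcL and LApc, 1 of 11 regulators tested was lower by 2-fold, Maf, and 1 was higher, Cdx2, against 3.48% and 1.46% of all genes, Cdx2 likewise named after its values were seen.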

How the data were processed

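Droplet-based 3′ libraries of 3 organoid cultures, 1 per group, were analysed. The authors deposited whole-number UMI counts per gene and barcode, with no normalisation. The file header names Cell Ranger 6.0.1, while the submitters' processing notes name 2.1.1, both with mm10.

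Barcodes were kept as described above (10000 UMIs, 20% mitochondrial, 1 library). Counts were summed per library, and a gene was called tested where either library compared reached 10 CPM. The call was a 2-fold difference. Intervals were exact (Poisson, conditional binomial and Clopper-Pearson; scipy 1.17.1) and were tested on simulated data. Barcodes were thinned to 10000 UMIs without replacement. Clusters came from scanpy 1.11.5 (2000 variable genes, 20 components, 20 neighbours, Leiden resolution 0.5), without the members and mitochondrial genes. A cluster was named when at least 3 markers of a class stood among its top 50 genes and 1 among its top 10. Clusters not named against all others were then set against those named for a class other than enterocyte, a step added after the clusters had been seen. Doublets were left in. Scrublet's own threshold called 1, 0 and 0 barcodes and so did not work, and removing top scores at a fixed rate served as an alternative.

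The 9 members, the marker lists and the gene lists were chosen with earlier results of these data known. Named were the members, the 3 genes most correlated with each, and from each list the 3 with the highest WT level and the 2 with the highest LApc to WT ratio. Some genes that this rule names are not reported here. Promoter sequences are from RefSeq (GRCm38.p6), in which all 9 members matched.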

Additional observations from a re-analysis of the deposited data

How the results depend on the processing

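No paired analysis was possible because each group had 1 library. Counts of members lower by 2-fold against WT stayed at 8 or 9 of 9 under every alternative run. In LApc, 8 rather than 9 were past it with at most 10% mitochondrial UMIs, with WT barcodes outside the enterocyte-like clusters, and, in alternatives chosen after seeing the data, without the Npy-led LApc cluster and with WT barcodes outside clusters 2, 3, 4 and 7, Vil1 being the exception each time (log2 ratios -0.93, -0.72, -0.93 and -0.52). In LApcL, 9 were past it under median-of-ratios factors. Between LApcL and LApc, adding 1 CPM to both levels left 1 member lower, Anpep. Adding 1 CPM also moved the log2 ratios of the scarce members against WT, in LApc to -9.88 for Sis, -3.85 for Lct, -3.35 for Treh and -5.72 for Alpi, and in LApcL to -9.96, -3.85, -3.33 and -5.82, by construction, since their levels there are far under 1 CPM. Members higher in LApcL than in LApc by 2-fold numbered 1 at a depth minimum of 5000 UMIs (Treh), 2 at the limit of 10% mitochondrial UMIs (Treh and Mep1a) and 1 with barcodes weighted equally (Mep1a), in place of 0. No called log2 ratio of a member changed sign. With no filter on low values the share of all genes lower by 2-fold was 21.4% in LApc, 23.7% in LApcL and 15.3% between them. The median r over member pairs was 0.141 as Spearman's rho on thinned UMIs, 0.302 within enterocyte-like barcodes and 0.101 outside them. At Leiden resolutions of 0.2 and 1.0 the enterocyte-like WT barcodes numbered 733 and 540 in place of 491, and they held 77.5% and 62.4% of Mgam UMIs in place of 51.2%. Alternatives that changed no count of members were a 20000-UMI minimum, 50% mitochondrial UMIs, the shared barcodes kept, Scrublet ranks, totals without the 50 most abundant genes, and, added after seeing the data, leaving out shallow or Paneth-like clusters. Single libraries and few UMIs of Sis, Lct, Treh and Alpi limit every ratio.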

Other observations

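The barcodes found in 1 library only but left out for depth or for mitochondrial UMIs numbered 6892 in WT, 5300 in LApc and 6838 in LApcL. Vil1 and Mgam were higher in these WT barcodes than in those used, at 364 against 220 CPM and 393 against 237 CPM, and Alpi was at 85.6 against 56.4 CPM. Sis went the other way, at 837 against 1202 CPM. In LApc and LApcL the left-out barcodes held 5 and 6 UMIs of Sis and 1 and 0 of Alpi. Anpep was at 50.2, 4.67 and 2.04 CPM in the left-out barcodes of the 3 libraries, and Dpp4 at 36.8, 9.93 and 8.30 CPM.

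In the shared, endothelial-rich barcodes Anpep was at 10.9 CPM in WT, 6.66 CPM in LApc and 6.20 CPM in LApcL. Sis was there at 58.5 CPM in WT, with 0 UMIs in LApc (exact 95% interval up to 0.600 CPM) and 2 UMIs in LApcL.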
